A study of Mus musculus with 15 samples.

Results

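The miR-34 family consists in the mouse of miR-34a, miR-34b and miR-34c, and the 3 mature 5p arms of these hairpins, miR-34a-5p, miR-34b-5p and miR-34c-5p, are described here across all 15 small RNA libraries of a mouse mammary study. An arm's reads were the inserts of 18 to 26 bases whose first 18 bases matched the arm exactly from its first base. The 3 arms were among 869 miRNA arms with at least 1 read, and they gave 368, 715 and 3973 reads in that order. The study sequenced 5 groups of 3 libraries each. TUBO exosomes are vesicles isolated from medium conditioned by TUBO cells, and TUBO supernatant is the liquid that remained after that isolation. TUBO cells are a mammary carcinoma line from tumours of BALB-neuT mice, which carry an activated rat Neu (Her2) transgene under a mammary tumour virus promoter. MM3MG-Her2 cells are MM3MG cells transduced with the retroviral construct pLSXN-Neu, and MM3MG is the parental mammary line from BALB/c mice. All lines were grown in DMEM with 10% FCS and no group received a drug; no source used here states whether MM3MG-Her2 is 1 clone or a pool, or whether the libraries of a group came from separate cultures. The p-values therefore measure only the spread between these libraries, which may be technical.

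The miR-34 genes are textbook direct targets of the tumour suppressor p53, which binds near their promoters and raises their transcription after DNA damage or oncogenic stress. The mature miRNAs in turn lower messages for cell cycle and survival proteins such as CDK4, CDK6, MET, MYC, BCL2 and SIRT1, so that the family acts as an arm of the p53 response. A mature miRNA finds its targets mainly through its seed, bases 2 to 8 from the 5′ end, and the miR-34 and miR-449 families share that seed. The miR-34a hairpin has a gene of its own, while miR-34b and miR-34c are cut from 1 shared transcript. In normal mouse tissues miR-34a is broadly expressed, whereas miR-34b/c and miR-449 are best known from ciliated epithelia and the male germ line.

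The sequences below show the bases outside the shared seed by which reads of miR-34a-5p, miR-34b-5p and the miR-449 arms were told apart. They are RefSeq mature sequences of build GRCm38.p6, which holds 2 of the 3 members, written 5′ to 3′ with the seed in capitals. The miR-34b-3p strand is included because its reads behave unlike those of the 5p arm of the same hairpin.
miR-34a-5p: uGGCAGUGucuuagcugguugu
miR-34b-5p: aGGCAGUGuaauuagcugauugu
miR-449a-5p: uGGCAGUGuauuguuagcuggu
miR-449c-5p: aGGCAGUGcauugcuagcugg
miR-34b-3p: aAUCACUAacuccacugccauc
The first 4 share the seed GGCAGUG. The seed of miR-34b-3p is found in 1 other RefSeq mature miRNA, miR-34c-3p.

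On GRCm38 the mature miR-34a-5p lies at chr4:150068473-150068494 on the plus strand, inside the Mir34a hairpin at chr4:150068454-150068555. The last 17 bases of that hairpin overlap an exon of Gm37795, a transcript of unresolved type on the same strand, and the nearest other protein-coding gene, Gpr157, is 18810 bases away. The mature miR-34b-5p lies at chr9:51103610-51103632 on the minus strand, inside Mir34b at chr9:51103562-51103645. Mir34c is at chr9:51103034-51103110, also on the minus strand, and 451 bases separate the hairpins. Both stand in an intron of Btg4, a protein-coding gene of the opposite strand. Reads of miR-34b-5p and miR-34c-5p were told apart by 1 differing base among their first 18. At that position 715 reads had the miR-34b base, 3973 had the miR-34c base and 3 had another base.

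The libraries held 196152 to 710902 reads, of which 59050 to 538817 were assigned to miRNA hairpins. The miRNA share averaged 59.2% in exosomes, 30.5% in supernatant, 76.3% in TUBO cells, 52.2% in MM3MG-Her2 cells and 76.8% in MM3MG cells. Levels are given as CPM, reads of an arm per 1000000 miRNA reads of the library. The supernatant libraries were the shallowest, and 3 reads there correspond to 38.9 to 50.8 CPM. Epithelial miRNAs were scarce in both MM3MG lines. The 7 epithelial arms of the miR-200, miR-203 and miR-205 families summed to 25355 to 26599 CPM in TUBO cells, 11.5 to 39.7 CPM in MM3MG-Her2 cells and 27.7 to 44.5 CPM in MM3MG cells. The cell type of MM3MG was not tested beyond such lists. The 6 stromal arms summed to 47761 to 47854 CPM in TUBO cells, to 104720 to 108840 CPM in MM3MG-Her2 cells and to 186090 to 201420 CPM in MM3MG cells. In TUBO cells nearly all of that sum was miR-143-3p, which averaged 47496 CPM, against 105530 CPM in MM3MG cells. There miR-214-3p had 0 reads in TUBO cells and 2138 CPM in MM3MG cells. The means of miR-199a-3p, miR-199a-5p, miR-10b-5p and miR-145a-5p were 117, 2.49, 14.6 and 168 CPM in TUBO cells. In MM3MG cells they were 74436, 2921, 9348 and 699 CPM. These lists move with every comparison of TUBO cells with the MM3MG lines below, and their part in those results was not tested.

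TUBO cells and the MM3MG lines differed in the balance of the family's loci. TUBO cells had miR-34a-5p at 170 CPM and miR-34c-5p at 162 CPM, about equal, whereas MM3MG-Her2 and MM3MG cells had miR-34c-5p at 1988 and 1952 CPM and only 2 and 7 reads of miR-34a-5p in all. Relative to MM3MG cells, miR-34a-5p was 22.7-fold higher in TUBO cells, miR-34b-5p 8.35-fold lower and miR-34c-5p 14.4-fold lower. TUBO exosomes carried miR-34a-5p and miR-34c-5p in nearly the proportion of their cells, and the supernatant libraries had no read that began at the first base of miR-34b-5p.

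**Figure D1:**
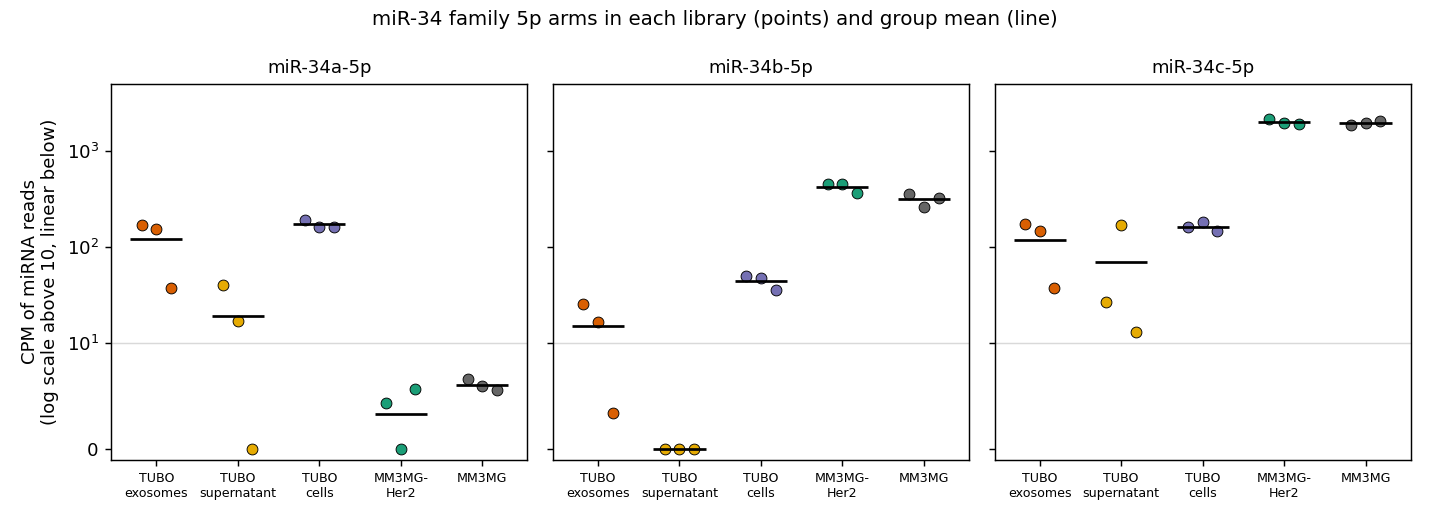
CPM of miR-34a-5p, miR-34b-5p and miR-34c-5p (y axis, log scale above 10 and linear below) in each of the 3 libraries of a group (points) with the group mean (line). The miR-34a-5p points of the MM3MG lines lie below 10 CPM, while their miR-34c-5p points lie between 1867 and 2132 CPM.

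miR-34a-5p, the member with its own gene, was a miRNA of TUBO cells and their vesicles. Its level was 169, 154 and 37.2 CPM in exosome libraries 1, 2 and 3. It was 39.6, 16.9 and 0 CPM in the supernatant libraries, from 3, 1 and 0 reads. In the libraries of TUBO cells it was 189, 162 and 160 CPM.
The cellular values lie close together and exosome library 3 stands well below the other two. MM3MG-Her2 libraries had 1, 0 and 1 reads of it, or 4.31, 0 and 5.67 CPM. MM3MG libraries had 2, 3 and 2 reads, or 6.61, 5.93 and 5.57 CPM. No library of either MM3MG line reached the lowest TUBO cell library, and supernatant and MM3MG libraries overlapped. The means were 120 ± 72.3 CPM in exosomes, 18.8 ± 19.9 CPM in supernatant, 170 ± 16.5 CPM in TUBO cells, 3.33 ± 2.96 CPM in MM3MG-Her2 cells and 6.04 ± 0.529 CPM in MM3MG cells (SD, n = 3 each). TUBO cells thus came highest, then exosomes, supernatant, MM3MG and MM3MG-Her2, and neither the first and second nor the last and the one before it differed beyond their spread. Among arms with reads in a group, ranked by mean level, miR-34a-5p was number 113 of 550 in TUBO cells and number 362 of 615 in MM3MG cells.

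miR-34b-5p, the less abundant product of the shared transcript, was low in everything derived from TUBO cells. Exosome libraries held 9, 4 and 1 reads, or 25.4, 16.2 and 3.38 CPM, and the supernatant libraries held none at the arm's exact start. TUBO cell libraries had 49.8, 47.3 and 35.3 CPM.
All TUBO cell libraries exceeded all exosome libraries. MM3MG-Her2 libraries had 448, 444 and 363 CPM, and MM3MG libraries had 357, 257 and 323 CPM. Every MM3MG-Her2 library was above every MM3MG library, though the lowest of the first group and the highest of the second were only a few CPM apart. The 0 of 211889 miRNA reads in the supernatant allows a level of up to 14.2 CPM, 3 reads over the group, which is close to the exosome mean of 14.998 ± 11.05 CPM and below the cellular mean of 44.1 ± 7.78 CPM (SD, n = 3 each). These limits, like the intervals below, cover counting error only, since several amplified reads can stem from the same molecule.

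miR-34c-5p was the most abundant member in the MM3MG lines, where it made up 81.4% to 88.2% of the family's reads. Exosome libraries had 172, 146 and 37.2 CPM of it. The supernatant libraries had 26.4, 169 and 12.97 CPM, from 2, 10 and 1 reads. TUBO cell libraries had 159, 179 and 147 CPM.
Exosome library 3 was again far below the other two, and a single supernatant library reached the cellular level. MM3MG-Her2 libraries had 2132, 1949 and 1883 CPM, and MM3MG libraries had 1867, 1960 and 2029 CPM. These 2 groups overlapped in part, and both lay more than 10 times above all other libraries. With means of 1988 ± 129 and 1952 ± 81.3 CPM (SD, n = 3 each), miR-34c-5p was number 47 of 529 arms with reads in MM3MG-Her2 cells and number 50 of 615 in MM3MG cells. In TUBO cells it was number 116 of 550.

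The balance between the loci was read from the 3 members within each library, where scaling does not enter. miR-34a-5p made up 46.2%, 48.7% and 47.8% of the family's reads in the exosome libraries and 47.5%, 41.7% and 46.7% in the TUBO cell libraries. Its share was 0.167%, 0% and 0.252% in MM3MG-Her2 libraries and 0.296%, 0.267% and 0.236% in MM3MG libraries. The supernatant libraries held only 5, 11 and 1 family reads, too few for a share by library. Summed over the group, 4 of 17 reads there were miR-34a-5p, or 23.5% with an exact binomial 95% interval of 6.81% to 49.9%. The log2 ratio of miR-34a-5p to miR-34b-5p plus miR-34c-5p reads, with 0.5 added to both sums, was -0.14 ± 0.08 in exosomes, -1.30 ± 1.66 in supernatant, -0.27 ± 0.18 in TUBO cells, -8.99 ± 1.16 in MM3MG-Her2 cells and -8.27 ± 0.17 in MM3MG cells (SD, n = 3 each). Where a library had so few miR-34a-5p or family reads, the added 0.5 makes the ratio depend on depth. The supernatant ratios were 0.485, -2.807 and -1.585 in libraries 1, 2 and 3, the last from 1 read. Their mean and SD therefore do not describe that group. MM3MG-Her2 library 2, with 0% of its 625 family reads from miR-34a-5p, stood at -10.29. The ratios of TUBO cells and exosomes overlapped with each other and not with those of either MM3MG line. No p is given, since an exact permutation test of 3 libraries against 3 cannot fall below 0.1.

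**Figure D2:**
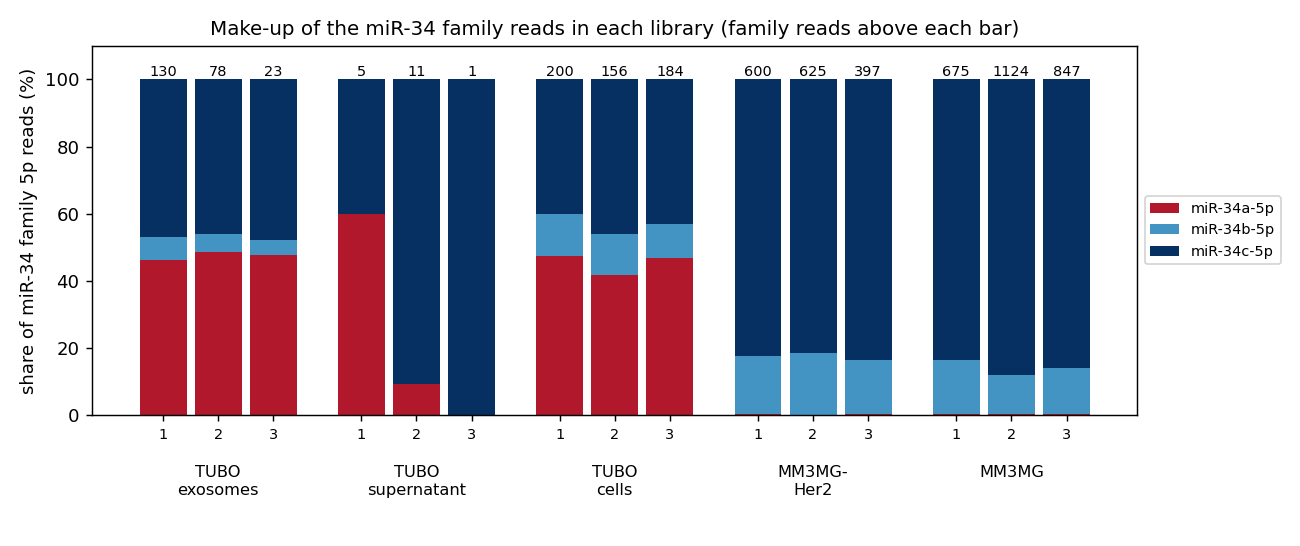
Share of miR-34a-5p, miR-34b-5p and miR-34c-5p (y axis, percent) among the family's 5p reads in each library, with the number of family reads above each bar. miR-34a-5p takes 41.7% to 48.7% in the libraries of exosomes and TUBO cells and at most 0.296% in those of the MM3MG lines; the supernatant bars rest on 1 to 11 reads.

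Summed over the 3 members, the family reached 254 ± 154 CPM in exosomes, 88.4 ± 88.8 CPM in supernatant, 376 ± 30.4 CPM in TUBO cells, 2410 ± 167 CPM in MM3MG-Her2 cells and 2270 ± 75.2 CPM in MM3MG cells (SD, n = 3 each). The higher sum of the MM3MG lines was thus made almost wholly of the chromosome 9 pair. Within that pair the ratio of miR-34b-5p to miR-34c-5p reads was 0.117 ± 0.0287 in exosomes, 0.272 ± 0.0367 in TUBO cells, 0.210 ± 0.0176 in MM3MG-Her2 cells and 0.160 ± 0.0300 in MM3MG cells (SD, n = 3 each). No exosome library, at 0.0909 to 0.148, reached the lowest TUBO cell library, at 0.241. The highest MM3MG library, at 0.191, lay just below the lowest MM3MG-Her2 library, at 0.193. Ligation and amplification favour some sequences, so a ratio of reads between members is comparable between groups but is not a ratio of molecules.

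The comparison of TUBO cells with MM3MG cells sets a Neu-driven tumour line against a non-tumour mammary line. Of 276 arms tested with edgeR's quasi-likelihood test and Benjamini-Hochberg adjustment at a threshold of 0.05, 81.2% differed between these lines, 34.1% higher and 47.1% lower, so the members were called along with most arms. miR-34a-5p rose by 4.50 ± 0.38 on the log2 scale (SE; edgeR adjusted p = 4.49e-15), from 246 reads in TUBO cells and 7 in MM3MG cells. Its ratio of summed CPM was 28.45, with a counting interval of 13.6 to 71.5. miR-34b-5p fell by 3.06 ± 0.22 (adjusted p = 1.76e-17) and miR-34c-5p fell by 3.85 ± 0.17 (adjusted p = 5.54e-26), both by the same edgeR test. All 3 members had libraries that did not overlap between the groups, as had 84.1% of the arms tested, and in size of change they were numbers 74, 92 and 79 of the 276 arms. The median change of all arms was -0.33, so relative to it the members changed by 4.84, -2.73 and -3.51. In cultured lines of this kind fewer cells with a miRNA and less of it per cell cannot be told apart.

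The members changed in the same directions when TUBO cells were compared with MM3MG-Her2 cells, 2 lines that both carry Neu. In this comparison 76.8% of the 276 arms passed the edgeR threshold, 28.3% higher and 48.6% lower. miR-34a-5p rose by 5.54 ± 0.51 (SE; edgeR adjusted p = 9.7e-14), from 246 reads in TUBO cells and 2 in MM3MG-Her2 cells. With so few reads the ratio of summed CPM is 57.1, with a counting interval of 15.6 to 474. miR-34b-5p was 10.5-fold lower in TUBO cells, a change of -3.39 ± 0.23 (edgeR adjusted p = 1.02e-18), and miR-34c-5p was 13.5-fold lower, a change of -3.76 ± 0.17 (edgeR adjusted p = 2.68e-25). All 3 members again had libraries that did not overlap, as had 80.1% of the arms. The 2 comparisons share the TUBO cell libraries, so they are not independent of each other.

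No member passed the threshold between the transduced and the parental line, although most arms did. MM3MG-Her2 cells against MM3MG cells called 60.9% of the 276 arms by edgeR, 27.9% higher and 33% lower, but none of the 3 members. The libraries of miR-34b-5p alone among the members did not overlap, as was so for 66.3% of the arms. The log2 change was -1.04 ± 0.99 for miR-34a-5p (SE; edgeR adjusted p = 0.381), with 2 reads in MM3MG-Her2 cells and 7 in MM3MG cells, a ratio of 0.498 whose counting interval of 0.0505 to 2.62 includes both a large loss and a gain. For miR-34b-5p it was 0.33 ± 0.18 (edgeR adjusted p = 0.12; 95% interval -0.03 to 0.69), and for miR-34c-5p -0.09 ± 0.14 (edgeR adjusted p = 0.626; 95% interval -0.37 to 0.20). The sign of the last 2 was not stable across settings. Across 14 alternatives the median change of all arms ranged from -0.52 to 0.00, and relative to that median miR-34b-5p ranged from 0.15 to 0.48 and miR-34c-5p from -0.27 to 0.02. With upper-quartile scaling miR-34b-5p passed the threshold as higher, and without a filter on low counts miR-34c-5p passed it as lower. In 5 of the 6 fits that left out a library of these lines, all but that without MM3MG-Her2 library 1, miR-34c-5p also passed as lower, at -0.60 to -0.49, beside medians of all arms of -0.52 to -0.43.

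**Figure D3:**
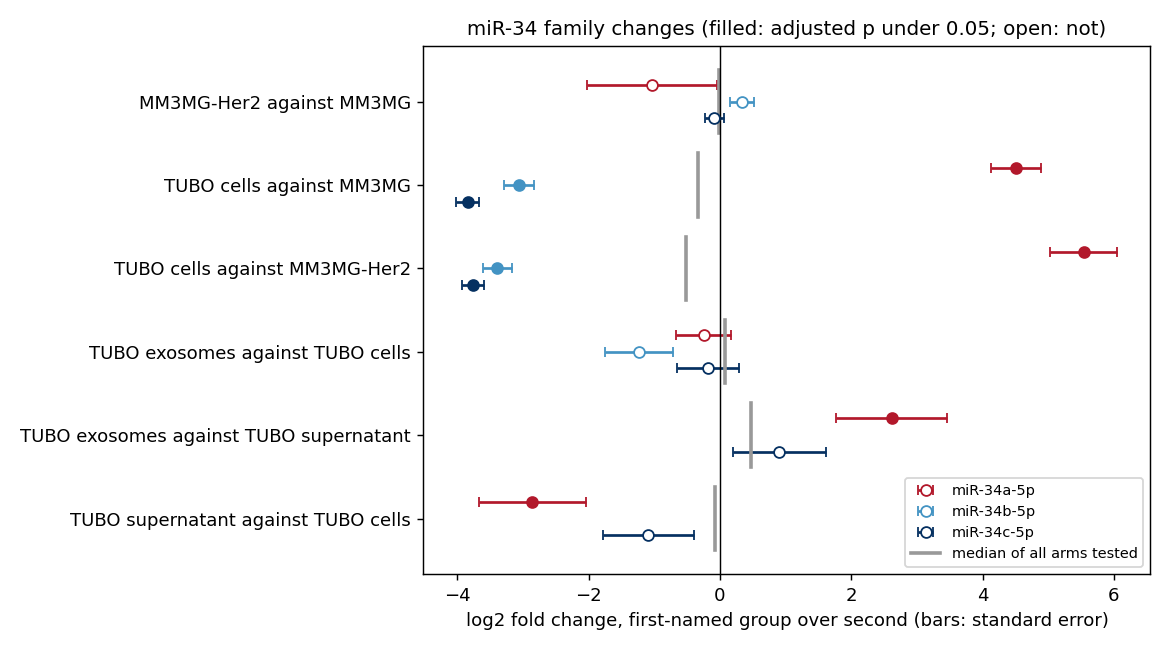
Log2 fold change (x axis, first-named group over second) of the 3 members in the 6 comparisons, with standard errors, filled where the edgeR adjusted p is under 0.05; grey bars mark the median of all arms tested. miR-34b-5p is not drawn for the comparisons with supernatant, which had 0 reads of it. In both comparisons of TUBO cells with an MM3MG line, miR-34a-5p lies at 4.50 or above and the other members at -3.06 or below.

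Between exosomes and the TUBO cells that shed them no member passed the threshold. In this comparison 38.2% of 238 arms did by edgeR, 23.5% higher and 14.7% lower. Among the members only miR-34b-5p had libraries that did not overlap, as had 64.3% of the arms. The log2 change was -0.25 ± 0.42 for miR-34a-5p (SE; edgeR adjusted p = 0.671; 95% interval -1.07 to 0.58). It was -1.24 ± 0.52 for miR-34b-5p (edgeR adjusted p = 0.0725; 95% interval -2.25 to -0.22) and -0.19 ± 0.47 for miR-34c-5p (edgeR adjusted p = 0.783; 95% interval -1.10 to 0.73). Unlike the adjusted p, these intervals take no account of the number of arms tested. The lower miR-34b-5p level passed the threshold with RLE size factors, with DESeq2 and without a filter, at adjusted p of 0.0339, 0.0369 and 0.0151, and by edgeR without exosome library 1 (-2.04, adjusted p = 0.0393). Exosome library 3 decided the sign of the other members: without it miR-34a-5p was at 0.19 and miR-34c-5p at 0.25, neither past the threshold by edgeR. That library also had the most blood and serum miRNA. Arms of that list, which includes the red-cell miRNA miR-451a and the liver miRNA miR-122-5p, summed to 10529, 11655 and 25284 CPM in exosome libraries 1, 2 and 3, where the miR-34 family summed to 366, 317 and 77.7 CPM. Most of the list's sum was miR-486a-5p, counted with miR-3107-5p, which averaged 14364 CPM in exosomes beside 15822 CPM for the list. miR-486a-5p also averaged 1126 CPM in MM3MG cells and 140 CPM in TUBO cells. In TUBO cells the list summed to 127 to 159 CPM, with 3 of its 8 arms detected. The medium contained calf serum, and the part of serum miRNA in the family's levels was not tested.

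Exosomes held more miR-34a-5p than the supernatant left after their isolation. Among 238 arms, 65.5% passed the edgeR threshold in this comparison, 37.8% higher and 27.7% lower. miR-34a-5p rose by 2.62 ± 0.85 (SE; edgeR adjusted p = 0.0126), with 109 exosome reads against 4 supernatant reads, but the libraries overlapped at exosome library 3. The call was lost without supernatant library 2 (adjusted p = 0.0566) or without supernatant library 3 (adjusted p = 0.0507). For miR-34b-5p there were 14 exosome reads against 0, and the edgeR adjusted p was 0.0798. Its summed exosome level was 1.10-fold that of 3 supernatant reads, a figure that leaves out the counting error of the 14 reads. A higher level in exosomes was therefore not established. miR-34b-5p was the only member whose libraries did not overlap, against 67.2% of all arms, and without exosome library 3 it passed the threshold (adjusted p = 0.026). With starts within 2 bases, which adds 1 supernatant read, its change was 1.70 (edgeR adjusted p = 0.293). miR-34c-5p differed by 0.91 ± 0.71 (SE; edgeR adjusted p = 0.28; 95% interval -0.50 to 2.31). That estimate rested on supernatant library 2, which held 10 of the 13 supernatant reads: without it the change was 2.31 and past the threshold, and without exosome library 3 it was 1.41 and also past it.

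Supernatant against TUBO cells called 73.5% of the 238 arms by edgeR, 35.7% higher and 37.8% lower. miR-34a-5p fell by 2.86 ± 0.81 (SE; edgeR adjusted p = 0.00548), and every supernatant library was below every cell library. miR-34b-5p fell as well (edgeR adjusted p = 0.00962), with 0 reads in supernatant against 63. Its summed level in TUBO cells was 3.09-fold that of 3 supernatant reads, a figure that leaves out the counting error of the 63 reads. With starts within 2 bases it had 1 read in supernatant and 66 in TUBO cells, and the change was -2.91 (edgeR adjusted p = 0.0309). These 2 members had libraries that did not overlap, as had 73.9% of the arms. miR-34c-5p changed by -1.09 ± 0.69 (SE; edgeR adjusted p = 0.167; 95% interval -2.45 to 0.26). Without supernatant library 2 it was at -2.75 and past the threshold. The blood and serum arms summed to 3065 to 7135 CPM in the supernatant libraries, mostly from miR-486a-5p at a mean of 4401 CPM. Supernatant library 3, which had the highest sum, had 1 family read. Inserts of 20 bases or shorter made up 28.9% ± 4.70 of supernatant reads and 10.1% ± 0.279 of TUBO cell reads (SD, n = 3 each); the part of either in these results was not tested.

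The supernatant reads of the miR-34b hairpin came mostly from the other strand. The 3p arm was counted at any start, as other arms were, while the member 5p arms were counted at their first base. Exosome libraries had 1, 0 and 0 reads of miR-34b-3p, printed above. The supernatant libraries had 79.2, 50.8 and 90.8 CPM of it, from 6, 3 and 7 reads. TUBO cell libraries had 13.9, 4.98 and 14.8 CPM, from 7, 2 and 8 reads.
All supernatant libraries were above all libraries of exosomes and TUBO cells. miR-34b-3p rose by 2.92 ± 0.60 in supernatant against TUBO cells (SE; edgeR adjusted p = 0.000358). It was lower in exosomes than in supernatant, with a ratio of summed CPM of 0.0148 and a counting interval of 0.000352 to 0.0950 (edgeR adjusted p = 3.24e-05), from 1 exosome read against 16. Both calls held when any 1 library was left out. Between exosomes and TUBO cells, with 1 read against 17, the call (edgeR adjusted p = 0.0409) was lost in 5 of 6 fits that left out a library.

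Of the miR-34b hairpin's reads, with both arms counted at any start, 6.25% were from the 3p arm in exosomes, with an exact binomial 95% interval of 0.158% to 30.2%, and 94.1% in supernatant, 16 of 17 with an interval of 71.3% to 99.9%. The share was 20.5% in TUBO cells (12.4% to 30.8%), 16.7% in MM3MG-Her2 cells (13.1% to 20.8%) and 20.4% in MM3MG cells (16.9% to 24.3%). The intervals of supernatant and each other group do not overlap. Of the 11 supernatant reads that began at the mature miR-34b-3p start, all were 21 to 23 bases long and 5 were the full RefSeq sequence. In TUBO cells 10 of 14 such reads were, and in MM3MG cells 52 of 78. Against the MM3MG lines, miR-34b-3p followed its 5p arm: its log2 change was -3.13 ± 0.41 in TUBO cells against MM3MG-Her2 cells and -3.03 ± 0.38 in TUBO cells against MM3MG cells (SE; edgeR adjusted p = 2.41e-09 and 8.62e-10). It did not pass between MM3MG-Her2 and MM3MG cells, at 0.11 ± 0.31 (SE; edgeR adjusted p = 0.793), and that sign turned without a filter on low counts. The other hairpins gave almost only 5p reads: the 3p arm made up at most 1.80% of miR-34a reads and at most 1.64% of miR-34c reads in any group.

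**Figure D4:**
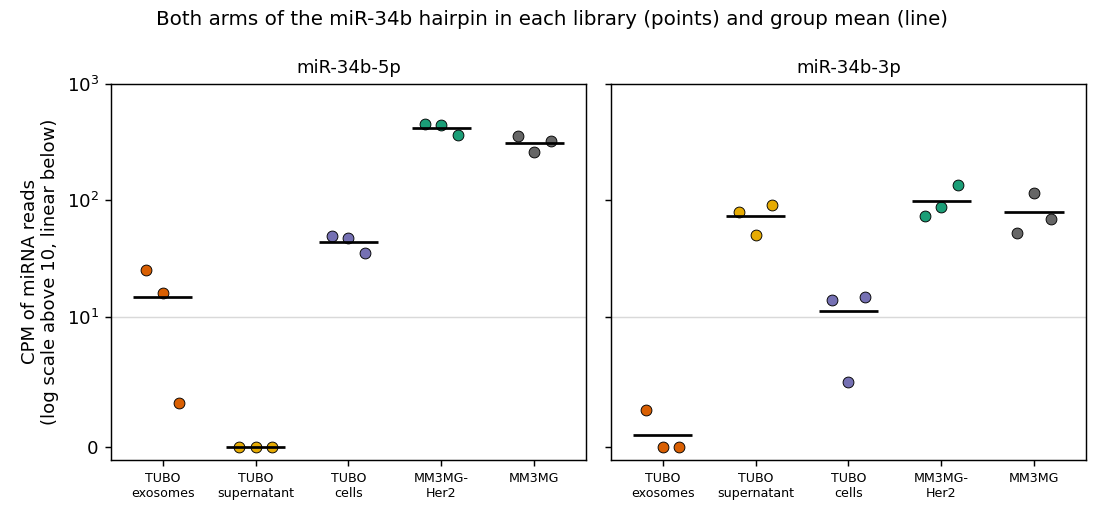
CPM of both arms of the miR-34b hairpin (y axis, log scale above 10 and linear below) in each library (points) with group means (lines). The 5p arm is counted at its first base and the 3p arm at any start. In supernatant the 5p arm is at 0 in all 3 libraries, with 1 further read that began 1 base earlier, and the 3p arm is at 50.8 to 90.8 CPM, from 16 reads of which 11 began at the mature start.

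The reads of each member had a dominant length that differed by 1 base between the loci. miR-34a-5p reads were mostly 22 bases long, 69.7% in exosomes and 58.1% in TUBO cells. miR-34b-5p reads were 23 bases long in 96.8% of TUBO cell, 98.6% of MM3MG-Her2 and 96.6% of MM3MG reads. miR-34c-5p reads were 23 bases long in 75%, 76.2%, 83.9% and 74.2% of exosome, TUBO cell, MM3MG-Her2 and MM3MG reads. The member with the fixed 3′ end was thus miR-34b-5p, although it comes from the same transcript as miR-34c-5p. Over all libraries 1.34% of miR-34a-5p, 8.68% of miR-34b-5p and 3.05% of miR-34c-5p reads began 1 or 2 bases away from the arm's start, which shifts the seed, but the groups weigh differently in each. Within TUBO cells the shares were 1.99% (exact binomial 95% interval 0.650% to 4.59%), 4.55% (0.947% to 12.7%) and 3.75% (1.73% to 6.999%), with overlapping intervals. In MM3MG-Her2 cells they were 10.97% (7.76% to 14.93%) for miR-34b-5p and 3.12% (2.27% to 4.18%) for miR-34c-5p. In MM3MG cells they were 7.33% (4.93% to 10.42%) for miR-34b-5p and 2.93% (2.29% to 3.70%) for miR-34c-5p. Within each MM3MG line the intervals of these members did not overlap.

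The forms below, given as DNA, are the commonest miR-34a-5p reads and its extensions, with the added bases in capitals. They are shown because most miR-34a-5p reads longer than 22 bases were of these forms.
miR-34a-5p, 22 bases: tggcagtgtcttagctggttgt
miR-34a-5p, 23 bases: tggcagtgtcttagctggttgtT
miR-34a-5p, 24 bases: tggcagtgtcttagctggttgtTT
The first form had 76 reads in exosomes and 142 in TUBO cells, the second 13 and 62, and the third 4 and 8. The first added T is also the next base of the hairpin, whereas the second is not. Reads longer than 22 bases made up 16.7% and 13.2% of miR-34a-5p in exosome libraries 1 and 2, and 29.5%, 49.2% and 31.4% in the TUBO cell libraries. Exosome library 3 went the other way, with 6 of its 11 reads longer than 22 bases, so the groups overlapped. Summed over the groups the share was 19.3% in exosomes (exact binomial 95% interval 12.3% to 27.9%) and 35.4% in TUBO cells (29.4% to 41.7%). No test was made of these shares.

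The 3′ end of miR-34c-5p varied as well. Reads shorter than 23 bases were 26.2% and 22.2% of miR-34c-5p in exosome libraries 1 and 2, and 16.3%, 15.3% and 15.2% in the TUBO cell libraries. They were 11.3%, 9.04% and 7.53% in MM3MG-Her2 libraries and 18.1%, 18.5% and 16.7% in MM3MG libraries. In exosome library 3 they were 2 of 11 reads. Summed over the groups the share was 24.1% in exosomes (exact binomial 95% interval 16.4% to 33.3%) and 15.6% in TUBO cells (11.2% to 20.9%), and these intervals overlap. The libraries of MM3MG-Her2 and MM3MG cells did not overlap. Bases that do not match the hairpin were on 7.54% ± 1.70 of miR-34c-5p reads in MM3MG-Her2 cells and 11.9% ± 0.655 in MM3MG cells (SD, n = 3 each), again without overlap. Inserts of 20 bases or shorter over the whole library were 15.9% ± 2.09 in exosomes and 10.1% ± 0.279 in TUBO cells (SD, n = 3 each), the same order as that of short miR-34c-5p reads. They were 16.1% ± 1.71 in MM3MG-Her2 cells and 10.2% ± 1.15 in MM3MG cells (SD, n = 3 each), the opposite order to that of short miR-34c-5p reads.

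**Figure D5:**
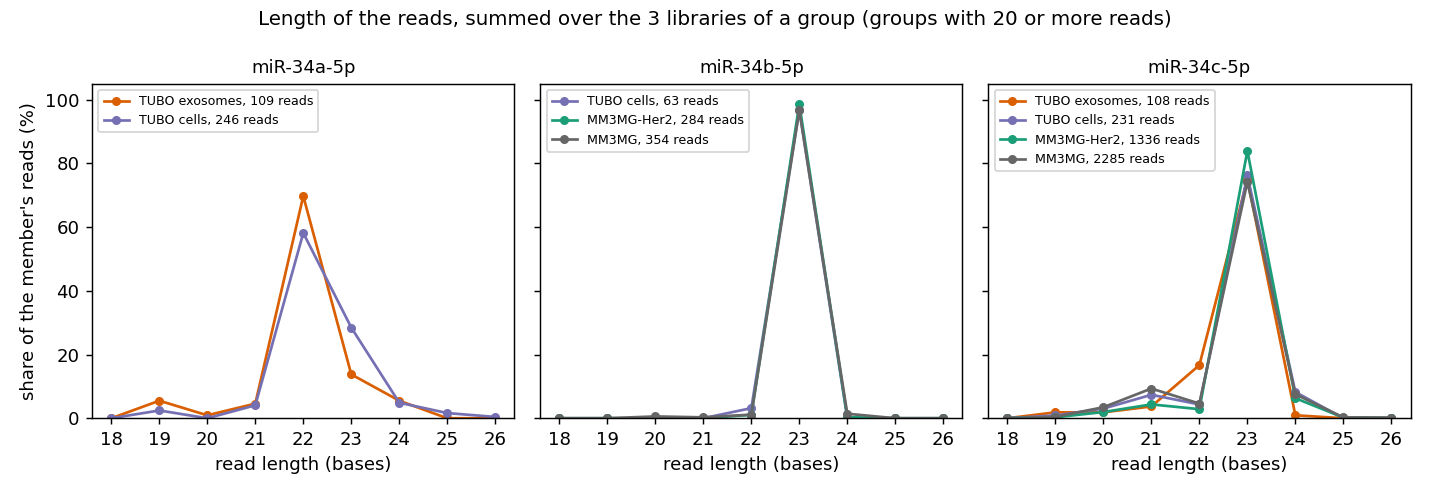
Share of each member's reads (y axis, percent) by read length in bases (x axis), summed over the 3 libraries of a group, for groups with at least 20 reads of the member. miR-34a-5p peaks at 22 bases with more 23-base reads in TUBO cells than in exosomes, and miR-34b-5p and miR-34c-5p peak at 23 bases.

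The miR-449 arms, which carry the same seed from a locus on chromosome 13, were found mostly in the MM3MG lines. miR-449a-5p had 18 reads in MM3MG-Her2 cells (27.6 ± 5.74 CPM), 16 in MM3MG cells (13.4 ± 2.35 CPM; SD, n = 3 each), and 1 read each in exosomes and TUBO cells. Every MM3MG-Her2 library, at 22.97 to 34.03 CPM, exceeded every MM3MG library, at 11.1 to 15.8 CPM. Of the arms tested between these lines, 66.3% also had libraries that did not overlap. The ratio of summed CPM of miR-449a-5p, 1.961, has a counting interval of 0.944 to 4.11. miR-449c-5p had 8 reads, all in MM3MG-Her2 cells. Its summed level there was 4.65-fold that of 3 reads in MM3MG cells, a figure that leaves out the counting error of the 8 reads. miR-449b-5p had 1 read in all. None of these arms passed the filter for the edgeR test.

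Which other miRNAs have a pattern like the members' was described by the Pearson correlation of log2(CPM + 1) over the 15 libraries, among 235 arms. The libraries fall into groups of 3 that share a source, and no p is given. miR-34a-5p was most like miR-135b-5p (r = 0.911), miR-141-5p (0.908) and miR-181c-5p (0.885), and it was unlike miR-34b-5p (-0.228) and miR-34c-5p (-0.364). miR-135b-5p and miR-141-5p averaged 202 and 125 CPM in TUBO cells and had no read in the MM3MG lines. miR-34b-5p was most like miR-5099-3p (0.970), miR-221-5p (0.969) and miR-322-5p (0.968), and miR-34c-5p was most like miR-193b-3p (0.971), miR-322-5p (0.955) and miR-125b-3p from Mir125b-2 (0.945). The chromosome 9 members correlated with each other at 0.916, with 11 arms closer to miR-34c-5p than miR-34b-5p was.

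Other miRNAs tied to p53 did not move as a block with either locus. The list of 12 contains miRNAs reported as transcribed or processed under p53, such as miR-192-5p and miR-194-5p, miR-143-3p and miR-145a-5p, miR-15a-5p and miR-16-5p, and miR-200c-3p and miR-141-3p. Its miR-107-3p was counted as a single merged arm with miR-103-3p, which is not on the list. Of 10 that could be tested, 5 rose and 3 fell in TUBO cells against MM3MG cells, where 34.1% of all arms rose and 47.1% fell, with a median change of 0.28 beside -0.33 for all arms. miR-192-5p averaged 236 CPM in TUBO cells and 53.3 CPM in MM3MG cells and rose by 1.86 ± 0.24 (SE; edgeR adjusted p = 9.54e-10). miR-200c-3p and miR-141-3p, epithelial miRNAs that also stand in the marker list above, averaged 4343 and 2246 CPM in TUBO cells, with 2 and 1 reads in MM3MG cells. miR-145a-5p fell by 2.29 ± 0.46 (SE; edgeR adjusted p = 0.00254), miR-22-3p by 1.89 ± 0.12 (edgeR adjusted p = 4.36e-19) and miR-143-3p by 1.40 ± 0.12 (edgeR adjusted p = 1.84e-14). miR-143-3p and miR-145a-5p are also on the stromal list. So the list held arms that moved with miR-34a-5p and arms that moved with the chromosome 9 pair.

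In TUBO cells against MM3MG-Her2 cells, 5 of the 10 rose and 3 fell, beside 28.3% and 48.6% of all arms, with a median of 0.31 beside -0.52 for all arms. The 3 that fell passed in neither the fit without a filter on low counts nor those without MM3MG-Her2 library 2 or 3. In MM3MG-Her2 against MM3MG cells 1 rose and 3 fell, beside 27.9% and 33% of all arms, with a median of -0.74 beside -0.01; without a filter 0 rose and 6 fell. Against supernatant, exosomes had 5 higher and 0 lower, beside 37.8% and 27.7% of all arms, with a median of 0.87 beside 0.48. In supernatant against TUBO cells 0 were higher and 6 lower, beside 35.7% and 37.8% of all arms, with a median of -0.86 beside -0.07. In each comparison of this paragraph so far, the calls included the merged arm of miR-103-3p and miR-107-3p. Its log2 changes were 0.85, -0.76, 2.00 and -1.60 in the order given, and they cannot be credited to miR-107-3p alone. By DESeq2 and RLE size factors 5 of the 10 fell in exosomes against TUBO cells, where edgeR with TMM had 2 higher and 3 lower, beside 23.5% and 14.7% of all arms. The scaling also moved the share of higher calls among all arms called in that comparison to 43% with RLE size factors, against 61.5% with TMM.

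A list of 4 miRNAs reported to repress p53 itself had 3 that could be tested, miR-125b-5p, miR-25-3p and miR-30d-5p. In TUBO cells against MM3MG cells miR-30d-5p rose by 0.56 ± 0.13 and miR-25-3p by 0.52 ± 0.12, while miR-125b-5p fell by 1.67 ± 0.13 (SE; edgeR adjusted p = 0.000176, 0.000176 and 8.27e-16), in a comparison that called 81.2% of all arms. In supernatant against TUBO cells all 3 rose, miR-25-3p by 2.34 ± 0.24 (SE; edgeR adjusted p = 1.94e-07), beside 35.7% of all arms that rose. Between exosomes and TUBO cells miR-25-3p rose by 1.09 ± 0.23 and miR-125b-5p fell by 0.68 ± 0.19 (SE; edgeR adjusted p = 0.00128 and 0.00913). In that comparison 23.5% of all arms rose and 14.7% fell. The miR-25-3p call was lost without TUBO cell library 2 (edgeR adjusted p = 0.0522). In exosomes against supernatant 0 of the list were higher and 3 lower, beside 37.8% and 27.7% of all arms.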

How the data were processed

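The deposited file of each of the 15 libraries lists every distinct insert and its read count, a raw count that was not normalized; per the labels' protocols, total RNA was ligated to adapters on both ends, amplified and gel-selected for miRNA inserts, with no molecular identifiers named. No source used here states the adapter trimming or a genome build. The counts were matched to 1174 named hairpins of GENCODE M21 (GRCm38) by an exact match of the first 18 bases, and arms were set by the RNAfold 2.7.2 loop; arms sharing at least 50% of their reads were merged. Member reads had to begin at the RefSeq mature start or, for miR-34c-5p, at the most-read start on the 5p side. CPM is over 4388286 miRNA reads in all. edgeR 4.0.16 (R 4.3.3; TMM, filterByExpr, robust quasi-likelihood, Benjamini-Hochberg adjustment over all arms tested) was fitted to the 9 libraries of cells and, apart from these, to the 9 libraries derived from TUBO cells, so groups share 1 estimate of the spread. The fit was tested on simulated counts. Fold changes are of the first-named group over the second. Alternatives were RLE and upper-quartile scaling, DESeq2 1.42.0, no filter, a replicate block, starts within 2 bases, 1 mismatch, inserts of 16 to 30 bases, and leaving out each library. Counting intervals are exact at 95%. The SE of a log2 change was derived from the change and its quasi-likelihood F statistic. The 95% intervals of log2 changes are a normal approximation from that SE, without adjustment for the number of arms tested. Named arms are the members, their 3p arms, arms with the same seed, the 3 most correlated arms per member, and up to 3 list members each way. The members and lists were chosen with earlier results of these data known. Chi-square per degree of freedom between libraries of a group was 4.78 to 105, above counting noise, so no 2 files hold the same counts; technical repeats of 1 RNA would not be told apart.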

Additional observations from a re-analysis of the deposited data

How the results depend on the processing

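The changes of all 3 members in TUBO cells against either MM3MG line kept direction and call in every alternative run, with miR-34a-5p at 4.44 to 4.72 and miR-34c-5p at -4.01 to -3.71 against MM3MG cells. In MM3MG-Her2 against MM3MG cells, upper-quartile scaling gave 0.43 for miR-34b-5p (adjusted p = 0.0455) and 0.021 for miR-34c-5p, and no filter gave -0.076, -0.50 (adjusted p = 0.00487) and, for miR-34b-3p, -0.31. Leaving out 1 library gave -0.24 to 0.24 for miR-34b-5p, -0.60 to -0.19 for miR-34c-5p and -0.58 to 0.24 for miR-34b-3p; the median of all arms moved with them, to between -0.52 and -0.19. In exosomes against TUBO cells, miR-34b-5p was at -1.48 with RLE size factors, -1.53 by DESeq2 and -1.55 without a filter, all past the threshold, and at -2.04 to -0.75 with 1 library left out. There miR-34a-5p ranged from -0.71 to 0.19 and miR-34c-5p from -0.69 to 0.25. In exosomes against supernatant, leaving out 1 library gave 2.21 to 3.87 for miR-34a-5p, 4.52 to 5.81 for miR-34b-5p and 0.43 to 2.31 for miR-34c-5p. The miR-34b-5p values rest on 0 supernatant reads, so their size is not a measured fold change. With starts within 2 bases the miR-34b-5p change was 1.70. In supernatant against TUBO cells, miR-34c-5p passed without a filter (-1.64, adjusted p = 0.00211) and ranged from -2.75 to -0.68 with 1 library left out. With the replicate number as a block it was at -1.24 (adjusted p = 0.034), and the block changed no other member's call; same-numbered libraries correlated at -0.193 to 0.133, and the labels give the numbers no meaning, so a pairing was not established. The cause of these changes was not tested. Depth limits the supernatant results (59050 to 77080 miRNA reads a library) and miR-34a-5p in the MM3MG lines, and an 18-base match cannot separate mouse from bovine serum miRNAs of the same sequence.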
